A study of Rattus norvegicus with 9 samples.

Results

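A set of 10 genes of the circadian clock is described here, namely Arntl, Clock, Per1, Per2, Per3, Cry1, Nr1d1, Nr1d2, Dbp and Tef, which were chosen by symbol and of which all 10 matched exactly 1 row each among the 32883 genes of the deposited tables. All 10 also passed the filter on low counts, which kept 14089 genes. The transcripts of 9 rat livers were sequenced in bulk, 3 of them normal, 3 of the empty group and 3 of the UTOpiA group, the last 6 with acute-on-chronic liver failure (ACLF). The ACLF rats were male Sprague-Dawley rats of 300 to 350 g, aged 8 to 11 weeks, in which the common bile duct had been ligated (BDL) for 21 days, after which lipopolysaccharide (LPS) was injected at 0.25 mg/kg into the abdominal cavity to bring on ACLF. Rats of both ACLF groups were connected 1 h after LPS to an extracorporeal blood circuit for 2 h under isoflurane with heparin, and livers were taken 24 h after LPS from rats that were still alive. The circuit of the empty group held neither cells nor adsorption beads, whereas that of the UTOpiA group held a granulocyte and monocyte/macrophage adsorption (GMA) column followed by alginate capsules with human iPSC-derived hepatocyte-like cells knocked out for CIITA and for the HLA genes A and B. The labels describe the normal rats only as normal, so BDL, LPS, anaesthesia and the circuit all separate them from both ACLF groups. The time of day at which each liver was collected is not given in the sources used here, and time of day, group and liver cannot be told apart for these genes.

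The circadian clock of the liver is a set of interlocked transcriptional loops that run in each cell. CLOCK and its partner BMAL1 (the product of Arntl) bind E-box sequences and switch on the Per and Cry genes, whose proteins return to the nucleus and repress CLOCK and BMAL1. A second loop is formed by REV-ERB alpha and beta (Nr1d1 and Nr1d2), which are also switched on through E-boxes and repress Arntl through RORE sequences, so that in a healthy liver Arntl runs in the opposite phase to Nr1d1, Dbp and the Per genes. DBP and TEF are PAR bZIP factors that carry the rhythm on to metabolic genes through D-box sequences. Per1 and Per2 additionally respond to outside timing cues such as glucocorticoids, temperature and feeding.

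The sequences just upstream of 4 of these genes are shown because they hold the elements that join the loops (Arntl, Per2, Tef) or because the gene moved in the opposite direction to its paralogue (Per1). RefSeq start sites on the rat build GRCr8 gave 11 windows, from 250 bases before the start to 50 bases after it, for 9 of the 10 genes, in which Arntl is listed as Bmal1; Cry1 had no entry. The bases before the start are printed 5′ to 3′ on the strand of the gene, with the matching letters in capitals.

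Arntl, chr1:176766078-176766327, plus strand: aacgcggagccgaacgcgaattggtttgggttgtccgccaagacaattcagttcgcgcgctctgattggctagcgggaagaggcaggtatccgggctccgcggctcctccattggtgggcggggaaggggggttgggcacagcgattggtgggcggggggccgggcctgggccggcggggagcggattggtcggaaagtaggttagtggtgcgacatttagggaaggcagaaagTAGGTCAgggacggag

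Per1, chr10:54304126-54304375, plus strand: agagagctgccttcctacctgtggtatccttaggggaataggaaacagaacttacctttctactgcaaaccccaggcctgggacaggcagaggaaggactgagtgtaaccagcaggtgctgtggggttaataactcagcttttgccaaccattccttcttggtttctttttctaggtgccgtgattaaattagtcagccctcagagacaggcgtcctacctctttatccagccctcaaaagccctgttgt

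Per2, chr9:99496994-99497243, minus strand: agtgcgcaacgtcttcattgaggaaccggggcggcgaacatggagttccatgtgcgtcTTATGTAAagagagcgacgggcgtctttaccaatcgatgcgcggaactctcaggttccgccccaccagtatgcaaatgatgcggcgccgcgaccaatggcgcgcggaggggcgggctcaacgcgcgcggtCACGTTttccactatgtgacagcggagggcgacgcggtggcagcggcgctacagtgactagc

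Tef, chr7:115206577-115206826, plus strand: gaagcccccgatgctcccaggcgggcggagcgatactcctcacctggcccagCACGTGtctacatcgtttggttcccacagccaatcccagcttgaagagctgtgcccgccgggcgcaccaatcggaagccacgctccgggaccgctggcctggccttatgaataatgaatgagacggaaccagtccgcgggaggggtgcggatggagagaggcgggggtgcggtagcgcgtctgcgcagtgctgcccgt

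The capitals mark a RORE core (TAGGTCA or TGGGTCA) that begins 16 bases before the start in Arntl, a D-box (TTATGTAA) at 192 bases and an E′-box (CACGTT) at 62 bases before the start in Per2, and an E-box (CACGTG) at 198 bases before the start in Tef. Both strands were searched, and no match overlapped another. The pair of Nr1d1 windows held an E′-box and an E-box, and the windows of Clock, Per1, Per3, Nr1d2 and Dbp held none of the motifs, nor did any window hold the CRE letters TGACGTCA. Among all 33469 rat windows of this length, 6.42% held the E-box, 4.83% the E′-box, 0.893% the D-box, 6.60% a RORE core and 1.83% the CRE. Letter matches of this kind are a description of the windows and do not show that a factor is bound.

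Between 14241172 and 17321677 reads were counted per library. Levels are given below as CPM after TMM normalisation, called normalised CPM, which corrects for a few very abundant genes taking up a different share of each library; comparisons between genes use TPM, which is per length. Differences are log2 fold changes from edgeR's quasi-likelihood test over all genes tested, and a gene is said to rise or fall at an adjusted p under 0.05 and to be a DEG when the change also exceeds 2-fold. Hepatocyte genes were abundant, as the label of liver implies, and the summed TPM of 10 of them was 169935 to 186622 in normal livers, with no marker at 0 in any library. In the ACLF livers that sum was lower, 44205 to 81075 in empty and 51398 to 78440 in UTOpiA livers, and 7 of the 10 hepatocyte markers were DEGs lower in the empty group. Of the markers of other cells, 6 of 6 cholangiocyte, 5 of 6 tested stellate cell and fibroblast and 5 of 5 tested neutrophil markers were higher as DEGs in both ACLF groups than in normal livers. Of 7 macrophage markers 5 (empty) and 3 (UTOpiA) were higher as DEGs. Of 5 tested endothelial markers, Kdr was a DEG lower in both groups (−1.54 and −1.50 on the log2 scale), Cdh5 rose in both and the others did not pass. Summed neutrophil markers went from 2.79 to 6.31 TPM in normal livers, where Mpo, Elane and Cxcr2 were at 0 in every library, to 179 to 1096 TPM in empty and 175 to 505 TPM in UTOpiA livers. Summed cholangiocyte markers went from 14.5 to 24.8 TPM to 304 to 610 TPM and 128 to 389 TPM, respectively. In bulk tissue, fewer cells of a type and less RNA per cell cannot be told apart, and the part of this change in tissue make-up in any result below was not tested.

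The empty group had, against normal livers, lower levels of the clock repressors Per2, Per3 and Cry1, of Clock and of Tef, and a higher level of Per1. Of the 10 clock genes, 5 fell, 1 rose and 4 (Arntl, Nr1d1, Nr1d2 and Dbp) did not pass the test. Across all genes tested, 21.5% fell and 26.9% rose in the same comparison. The DEGs were Per2, Per3 and Cry1, all lower, which makes 3 of 10 clock genes against 31.8% of all genes tested, so that the share was close to the background. The median difference on the log2 scale was −0.65 over the 10 clock genes and 0.04 over all genes tested. The normalised CPM of the 2 groups did not overlap for 6 of the 10 clock genes (Per1, higher, and Clock, Per2, Per3, Cry1 and Tef, lower), against 61.1% of all genes tested. In TPM they did not overlap for Per1 and Nr1d1, both higher, and for Per2, Per3 and Tef, all lower. The 3 comparisons share livers: the empty livers also enter that between the ACLF groups, and the normal livers also enter that of the UTOpiA group.

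**Figure D1:**
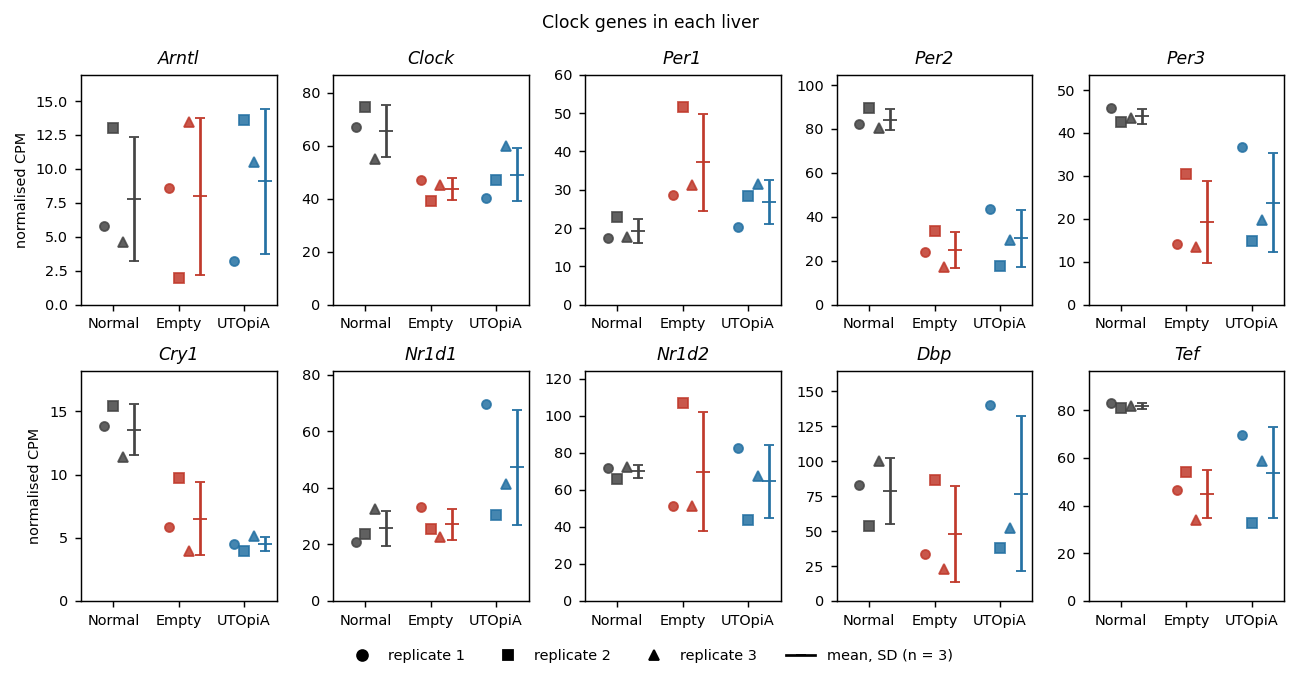
Normalised CPM (y axis, linear, from 0) of the 10 clock genes in each of the 9 livers by group, with the replicate number as the symbol and the mean and SD of 3 livers as a bar beside the points. Per2 and Cry1 lie lower in all 6 ACLF livers than in the 3 normal livers, whereas Arntl spreads widely in every group.

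The PER proteins are the negative limb of the loop. Per2 was measured at 80.4, 82.4 and 89.5 normalised CPM in normal livers, at 17.3, 23.8 and 33.6 in empty livers and at 17.4, 29.3 and 43.6 in UTOpiA livers. The highest ACLF liver thus stood well below the lowest normal liver, and the 2 ACLF groups overlapped. Per2 fell by 1.76 on the log2 scale in the empty group (SE 0.33, adjusted p = 0.00263), a 3.38-fold lower level, and by 1.48 in the UTOpiA group (SE 0.33, adjusted p = 0.00769), a 2.80-fold lower level. Both differences passed the test under all 20 alternative analyses. The gene lies on chromosome 9 at 98555169 to 98597359 on the minus strand in the positions of the deposited tables, which the labels place on rn6. Its relatives Per1 (chromosome 10, 55687050 to 55695994, plus strand) and Per3 (chromosome 5, 168086998 to 168123395, minus strand) and its partner Cry1 (chromosome 7, 24534615 to 24634097, plus strand) are, like the other clock genes, listed as protein-coding.

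Per3, a further period gene, had nearly the same level in all normal livers, at 42.4, 43.5 and 45.8 normalised CPM. In the empty group its livers stood at 13.5, 14.1 and 30.4 normalised CPM, and in the UTOpiA group at 14.9, 19.6 and 36.7. All ACLF livers were below all normal livers, and 1 liver of each ACLF group stood nearer to the normal level than the other two. Per3 fell by 1.19 in the empty group (SE 0.39, adjusted p = 0.0315), a 2.28-fold lower level, while the difference of −0.89 in the UTOpiA group did not pass (SE 0.39, adjusted p = 0.0972). The call in the empty group was close to the threshold and was lost, at adjusted p from 0.0647 to 0.0993, without any 1 of the normal livers, without empty replicate 1 or without empty replicate 3, and also with no filter on counts (adjusted p = 0.0503). Without UTOpiA replicate 1, the highest liver of its group, Per3 was a DEG lower in the UTOpiA group than in normal livers (log2 fold change −1.36, adjusted p = 0.0200).

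Per1, a period gene that responds quickly to outside cues, went the other way. Normal livers held 17.3, 17.6 and 23.0 normalised CPM of Per1, the empty group 28.6, 31.2 and 51.6, and the UTOpiA group 20.3, 28.4 and 31.5. The empty group lay wholly above the normal livers, and the UTOpiA group overlapped both. Per1 rose by 0.94 in the empty group (SE 0.26, adjusted p = 0.0133), a 1.92-fold higher level that stayed short of the DEG threshold. In the UTOpiA group the difference from normal livers was 0.47 (SE 0.26, adjusted p = 0.171). The rise in the empty group missed the test by a small margin without normal replicate 1 (0.87, adjusted p = 0.0527) or normal replicate 3 (0.88, adjusted p = 0.0515), and it exceeded 2-fold without normal replicate 2 (1.08), empty replicate 1 (1.10) or empty replicate 3 (1.05), and also with upper-quartile factors (1.04). Without empty replicate 2, the liver highest in Per1, it was 0.63 (adjusted p = 0.0325).

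The balance between the 2 paralogues changed in every ACLF liver. Per length, the log2 TPM of Per1 minus that of Per2 was −1.74, −1.68 and −1.45 in normal livers, so that Per2 was the more abundant transcript. It was 0.78, 1.14 and 1.36 in the empty group, in which Per1 exceeded Per2 in all 3 livers. In the UTOpiA group the value was −0.59 in replicate 1, 0.62 in replicate 3 and 1.23 in replicate 2, above all normal livers and with both signs. This difference within a library does not depend on how libraries are scaled to each other.

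Cry1, the cryptochrome that partners the PER proteins in repression, was a low transcript of 11.4, 13.8 and 15.4 normalised CPM in normal livers. Empty livers held 3.99, 5.86 and 9.71 and UTOpiA livers 3.99, 4.49 and 5.11, which all lay in the lower part of the range of the empty group. Cry1 fell by 1.06 in the empty group (SE 0.30, adjusted p = 0.0164), a 2.08-fold lower level, and by 1.58 in the UTOpiA group (SE 0.31, adjusted p = 0.00373), a 3.00-fold lower level. The fall in the UTOpiA group passed under all 20 alternatives. In the empty group the call was lost without normal replicate 2 (−0.96, adjusted p = 0.0588) or empty replicate 1 (−0.99, adjusted p = 0.0509), and without empty replicate 3 the fall was under 2-fold (−0.80, adjusted p = 0.0410), as it was with upper-quartile factors (−0.96) or at least 10 counts in every library (−0.96).

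Arntl and Clock encode the activating pair. Arntl had levels of 4.59, 5.77 and 13.0 normalised CPM in normal livers, 1.93, 8.61 and 13.5 in empty livers and 3.19, 10.5 and 13.6 in UTOpiA livers. The 3 groups covered much the same range, and within the empty group the highest liver held 6.97 times the level of the lowest. Its log2 fold changes were 0.04 for the empty group against normal livers (SE 0.73, adjusted p = 0.970) and 0.23 for the UTOpiA group (SE 0.73, adjusted p = 0.827). With standard errors of this size the data do not show that the groups were alike. Arntl lies on chromosome 1 at 178039063 to 178137465 on the plus strand, and Clock on chromosome 14 at 34446616 to 34502218, also on the plus strand.

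Clock was at 55.0, 66.9 and 74.5 normalised CPM in normal livers, at 39.0, 45.0 and 47.1 in empty livers and at 40.2, 47.1 and 59.8 in UTOpiA livers. The empty group lay below all normal livers and the UTOpiA group overlapped them. Clock fell by 0.58 in the empty group (SE 0.18, adjusted p = 0.0222), whereas the difference of −0.42 in the UTOpiA group did not pass (SE 0.18, adjusted p = 0.0877). This fall depended on the scaling of the libraries. With library totals alone, which moved the median of all genes from 0.04 to 0.60, the log2 fold change of Clock was −0.03 (adjusted p = 0.908), which is 0.63 below that median. The TPM of Clock, which carry no TMM factor, were 8.27 to 11.5 in normal livers and 8.39 to 10.6 in the empty group. The same scaling also ended the calls of Per3 (−0.65, adjusted p = 0.162), Cry1 (−0.53, adjusted p = 0.1496) and Tef (−0.33, adjusted p = 0.224) in the empty group, while Per1 became a DEG (1.49, adjusted p = 0.00144). The fall also missed the test without normal replicate 1, normal replicate 2 or empty replicate 2, at adjusted p from 0.0556 to 0.0867, and without UTOpiA replicate 3 the fall in the UTOpiA group passed it (−0.59, adjusted p = 0.0268).

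Nr1d1 and Nr1d2 encode the heme-binding nuclear receptors that repress Arntl. Nr1d1 was measured at 20.7, 23.6 and 32.6 normalised CPM in normal livers, 22.6, 25.4 and 33.2 in empty livers and 30.6, 41.3 and 69.8 in UTOpiA livers. The empty group overlapped the normal livers, and the UTOpiA group overlapped both through its lowest liver. The TPM of Nr1d1, which carry no TMM factor, were 11.6 to 18.1 in normal livers and higher in all empty (19.7 to 25.2) and UTOpiA livers (23.4 to 50.1). Nr1d1 rose by 0.88 in the UTOpiA group against normal livers (SE 0.31, adjusted p = 0.0468), a 1.84-fold higher level, and differed by 0.08 in the empty group (SE 0.31, adjusted p = 0.852). That rise rested on UTOpiA replicate 1, the highest of the 9 livers, without which it was 0.48 (adjusted p = 0.173), and it also missed the test without normal replicate 1 (0.74), normal replicate 2 (0.82), UTOpiA replicate 3 (0.96) or any 1 of the empty livers (0.88). It exceeded 2-fold without normal replicate 3 (1.09) or UTOpiA replicate 2 (1.12), and Nr1d1 was a DEG with library totals alone (1.24, adjusted p = 0.00862) and by limma on log2(TPM + 1) (1.08, adjusted p = 0.0174). On chromosome 10, at 86683875 to 86690815 on the minus strand, Nr1d1 overlaps Thra, the thyroid hormone receptor alpha gene on the opposite strand, and whether strand was used in counting is not given in the sources used here, so reads of the 2 genes could be mixed. Thra itself had 129 to 152 counts in normal, 238 to 366 in empty and 266 to 412 in UTOpiA livers, beside 237 to 398, 471 to 641 and 549 to 1073 counts of Nr1d1.

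Nr1d2 did not pass the test in either ACLF group and had a wider spread there than in normal livers. It was at 66.0, 71.8 and 72.4 normalised CPM in normal livers, at 51.1, 51.4 and 107 in empty livers and at 43.9, 67.3 and 82.6 in UTOpiA livers. The ACLF livers therefore lay on both sides of the normal range. Nr1d2 lies on chromosome 15 at 8730871 to 8757165 on the plus strand. Its log2 fold changes against normal livers were −0.00 in the empty group (SE 0.31, adjusted p = 0.991) and −0.12 in the UTOpiA group (SE 0.32, adjusted p = 0.791).

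Dbp, an output factor with a wide daily swing in liver, was at 53.5, 83.4 and 99.95 normalised CPM in normal livers, at 23.0, 33.4 and 86.9 in empty livers and at 37.7, 52.6 and 140.1 in UTOpiA livers. The groups overlapped, and in both ACLF groups 1 liver stood far above the other two. Its log2 fold changes against normal livers were −0.72 in the empty group (SE 0.60, adjusted p = 0.345), which was −1.49 (adjusted p = 0.0623) without empty replicate 2, and −0.04 in the UTOpiA group (SE 0.60, adjusted p = 0.964). Tef, its relative with a flatter rhythm, was almost constant in normal livers at 80.8, 81.7 and 83.2 normalised CPM against 34.0, 46.5 and 54.1 in empty and 32.7, 58.9 and 69.7 in UTOpiA livers. In normalised CPM all ACLF livers lay below all normal livers. In TPM, UTOpiA replicate 1 held 30.6 of Tef, above the 27.8 to 28.5 of normal livers. Dbp lies on chromosome 1 at 101687855 to 101692846 and Tef on chromosome 7 at 123043503 to 123058604, both on the plus strand. Tef fell by 0.87 in the empty group (SE 0.26, adjusted p = 0.0220), a 1.83-fold lower level, and the difference of −0.61 in the UTOpiA group did not pass (SE 0.26, adjusted p = 0.0928). The fall in the empty group missed the test without any 1 of the normal livers (adjusted p from 0.0535 to 0.0565) or without empty replicate 3 (−0.70, adjusted p = 0.0766), and exceeded 2-fold without empty replicate 2 (−1.03). Without UTOpiA replicate 1 the fall in the UTOpiA group passed (−0.85, adjusted p = 0.0410).

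Per2 and Cry1 were therefore the DEGs among the clock genes in the UTOpiA group against normal livers, both lower, which is 2 of 10 against 25.0% of all genes tested. Of the 10 genes, 2 fell, 1 rose and 7 did not pass, against 16.2% of all genes that fell and 23.3% that rose. The 10 genes had a median difference of −0.27 on the log2 scale, and that of all genes tested was 0.05. The 2 groups did not overlap for 4 of the 10 genes (Per2, Per3, Cry1 and Tef, all lower), against 56.9% of all genes tested. In TPM the 4 genes without overlap were Per2 and Cry1, both lower, and Per1 and Nr1d1, both higher.

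Whether UTOpiA changed the clock genes in ACLF livers is addressed by the comparison of the UTOpiA group with the empty group. None of the 10 clock genes passed edgeR's test, and 0.0% of all genes tested did. Over all genes, DESeq2 found 193 of 20183 at an adjusted p under 0.05, and edgeR found 51 without empty replicate 2 and 53 without UTOpiA replicate 2, but no clock gene passed in any alternative. At an unadjusted p under 0.05, 1 clock gene was found by edgeR (Nr1d1), 1 by DESeq2 (Nr1d1) and 1 by limma on log2(TPM + 1) (Per1), against 10.3% of all genes by edgeR, 8.17% by DESeq2 and 1470 of 13316 genes by limma, so that the share was close to the background. The normalised CPM of the groups overlapped for all 10 genes, whereas they did not overlap for 12.1% of all genes tested. In TPM the groups did not overlap for Cry1, which was lower in the UTOpiA group. Nr1d1 had a log2 fold change of 0.80 (SE 0.30, adjusted p = 0.437), which was 0.39 without UTOpiA replicate 1. The differences were −0.53 for Cry1 (SE 0.31, adjusted p = 0.589), −0.47 for Per1 (SE 0.25, adjusted p = 0.552) and 0.68 for Dbp (SE 0.60, adjusted p = 0.731). For Per2 it was 0.27, for Per3 0.30, for Tef 0.26, for Arntl 0.19, for Clock 0.17 and for Nr1d2 −0.11. These values do not show that the groups were alike.

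**Figure D2:**
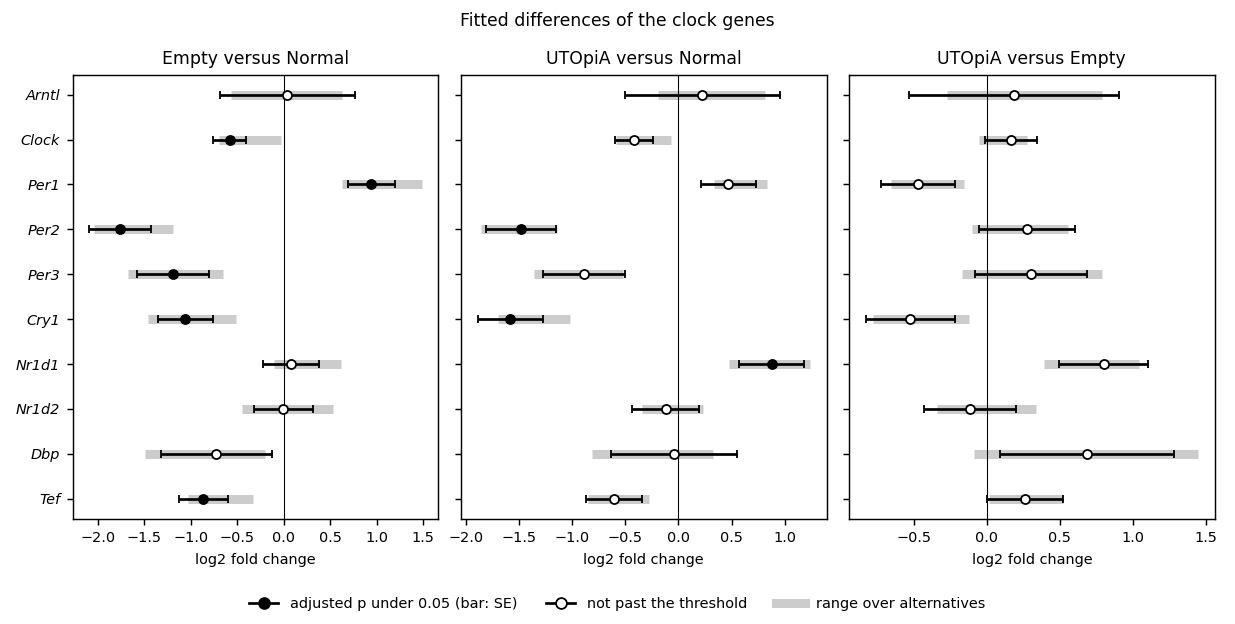
Log2 fold changes (x axis) of the 10 clock genes in the 3 comparisons, with bars of 1 SE, filled points at an adjusted p under 0.05 and grey bands for the range over the 20 alternatives. A total of 6 points are filled for the empty group against normal livers, 3 for the UTOpiA group against normal livers and 0 between the ACLF groups.

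Most clock genes had a wider spread among ACLF livers than among normal livers. The median SD of log2 CPM over the 10 genes was 0.22 (normal), 0.54 (empty) and 0.59 (UTOpiA), while that over all genes tested was 0.19, 0.29 and 0.30. The SD was smaller than in normal livers for Clock (0.14 against 0.22) and Nr1d1 (0.28 against 0.34) in the empty group and for Cry1 (0.17 against 0.22) in the UTOpiA group. In normal livers the SD was 0.02 for Tef, 0.06 for Per3, 0.07 for Nr1d2 and 0.08 for Per2. In the same livers Arntl, at 0.78, was more variable than 92.6% of all genes tested, and it was again above most genes in both ACLF groups (97.2% and 95.5%). Dbp followed, above 82.1%, 93.1% and 93.9% of genes in the 3 groups. Of the 10 clock genes, 6 were above the median SD of all genes in normal livers and 8 in each ACLF group, and 1, 2 and 2 were above the 90th percentile.

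In 2 of the ACLF livers Arntl stood at the opposite end of its range from Dbp, Per3, Per2 and Nr1d2. Empty replicate 2 and UTOpiA replicate 1 had the 2 lowest levels of Arntl among the 6 ACLF livers, at 1.93 and 3.19 normalised CPM. They also had the 2 highest levels of Dbp (86.9 and 140.1), of Per3 (30.4 and 36.7), of Per2 (33.6 and 43.6) and of Nr1d2 (107 and 82.6). The remaining 4 livers held 8.61 to 13.6 normalised CPM of Arntl and 23.0 to 52.6 of Dbp. Per length, log2 TPM of Arntl minus that of Dbp was −6.30 in empty replicate 2 and −6.26 in UTOpiA replicate 1, and −1.58 to −3.12 in the other 4 ACLF livers, with −5.25, −4.66 and −2.84 in normal livers. The ACLF livers thus lay on both sides of the normal range, and the normal liver with the highest Arntl, replicate 2, was the one with the lowest Dbp. Nr1d1 followed Dbp in UTOpiA replicate 1 (69.8, the highest of the 6) and not in empty replicate 2 (25.4, the second lowest). Clock stood with Arntl, since these livers also had its 2 lowest levels of the 6 (39.0 and 40.2 normalised CPM). Per1, Cry1 and Tef did not share the pattern in both livers. Per1 and Cry1 were the highest of the 6 in empty replicate 2 but the lowest and the third lowest in UTOpiA replicate 1. Tef was the highest in UTOpiA replicate 1 but the third highest in empty replicate 2. These livers were singled out after their values were seen, so no test was made on them. The same 2 livers had the highest summed hepatocyte markers of the ACLF livers, at 81075 and 78440 TPM, and the part of tissue make-up in the pattern was not tested.

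**Figure D3:**
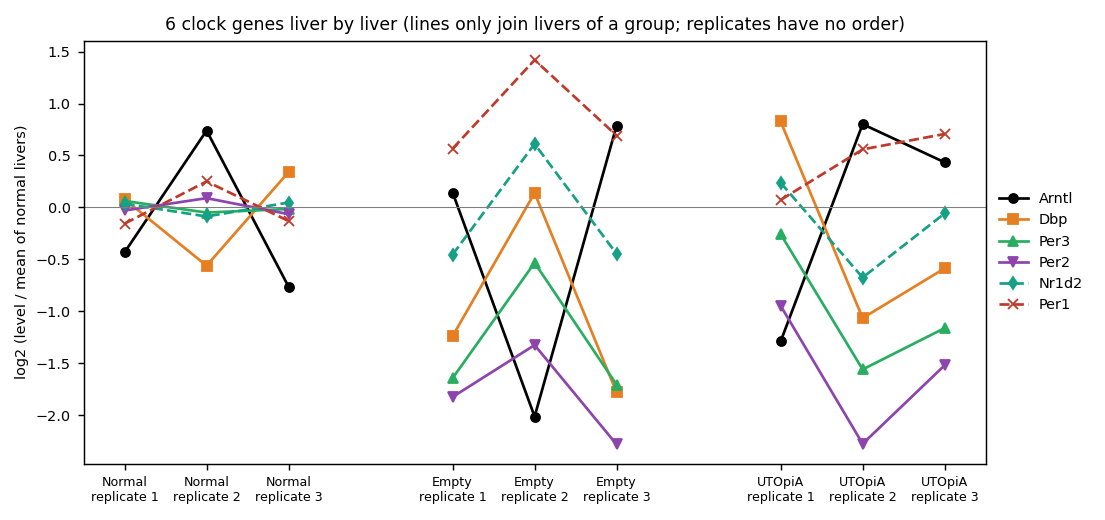
Log2 ratio of each liver's normalised CPM to the mean of the 3 normal livers (y axis) for 6 clock genes, with the livers on the x axis; lines only join the livers of a group, which have no order. In empty replicate 2 and UTOpiA replicate 1 the point of Arntl is the lowest of its group while those of Dbp, Per3, Per2 and Nr1d2 are the highest of theirs.

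Between genes, levels were compared as TPM. In normal livers Dbp was the most abundant of the 10 at a mean of 66.3 TPM, followed by Tef at 28.2, Nr1d2 at 21.8, Per2 at 20.9 and Nr1d1 at 14.4 TPM. Clock at 9.98, Per3 at 9.73, Per1 at 6.84, Cry1 at 6.66 and Arntl at 3.78 TPM came after. Nr1d2 and Per2 did not differ beyond their spread, nor did Clock and Per3, Per1 and Cry1, or Cry1 and Arntl. Per2 stood in rank 4 in normal livers and in rank 7 in both ACLF groups, at 8.77 TPM (empty) and 9.19 TPM (UTOpiA). Per1 went from rank 8 to rank 5 in both, at 18.8 and 11.8 TPM. Nr1d1 reached rank 2 in the UTOpiA group at 33.1 TPM, of which UTOpiA replicate 1 held 50.1 and the others 25.7 and 23.4.

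Other factors of the same loops were followed from a written list, of which 9 genes passed the filter on low counts and were tested. In the empty group against normal livers, 3 of the 9 tested rose (Npas2, Arntl2 and Bhlhe41), 3 fell (Cry2, Rora and Hlf) and 3 did not pass (Nfil3, Bhlhe40 and Ciart), against 26.9% of all genes that rose and 21.5% that fell, and 5 were DEGs, against 31.8%. Without empty replicate 2, which held 234 normalised CPM of Bhlhe40 against 51.2 and 55.1 in the other empty livers, 7 were DEGs, with Bhlhe40 (−1.07, adjusted p = 0.00422, from 0.02) and Cry2 added. Nfil3 was a DEG, higher, in the empty group with library totals alone (1.11, adjusted p = 0.00734) and by limma on log2(TPM + 1) (1.06, adjusted p = 0.0108). Npas2, a paralogue that can take the place of CLOCK, was at 0.70, 0.73 and 0.90 normalised CPM in normal livers, 3.22, 3.89 and 7.11 in empty livers and 4.36, 8.35 and 9.70 in UTOpiA livers. All ACLF livers were above all normal livers, with a 6.06-fold rise in the empty group (adjusted p = 0.00131) and a rise of 3.25 on the log2 scale in the UTOpiA group (SE 0.44, adjusted p = 6.87e-04). Arntl2, the paralogue of Arntl, rose by 1.84 (SE 0.44, adjusted p = 0.00761) and 2.03 (SE 0.44, adjusted p = 0.00642), from levels of 0.35 to 0.89 in normal livers. Bhlhe41, a repressor at E-boxes, was below 0.27 normalised CPM in each normal liver and rose by 3.58 (SE 0.70, adjusted p = 0.00270) and 2.41 (SE 0.71, adjusted p = 0.0241).

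Hlf, the third PAR bZIP factor beside Dbp and Tef, was lower in both ACLF groups. It was at 14.2, 16.6 and 20.0 normalised CPM in normal livers, 2.36, 3.27 and 8.82 in empty livers and 2.22, 3.16 and 4.03 in UTOpiA livers, with no overlap between normal and ACLF livers. Hlf fell by 1.81 in the empty group (SE 0.45, adjusted p = 0.00945) and by 2.44 in the UTOpiA group (SE 0.47, adjusted p = 0.00386), and both falls passed under all 20 alternatives. Cry2 fell by 0.94 (SE 0.22, adjusted p = 0.00596) and fell by 0.66 (SE 0.21, adjusted p = 0.0356), so that both cryptochrome genes were lower in both ACLF groups. Rora, which activates through the RORE sequences that REV-ERB proteins occupy, fell by 1.56 in the empty group (SE 0.36, adjusted p = 0.00594) and was at −0.87 in the UTOpiA group (SE 0.35, adjusted p = 0.0744), where it passed without empty replicate 2 (adjusted p = 0.0163) or 3 (adjusted p = 0.0429). In the UTOpiA group against normal livers 3 of the 9 rose, 2 fell and 4 were DEGs, against 23.3%, 16.2% and 25.0% of all genes tested. Bhlhe40 did not pass there (−0.92, adjusted p = 0.211). It did without empty replicate 2 (adjusted p = 0.00552) or with only the 6 libraries compared (adjusted p = 0.00726). Nfil3 was a DEG, higher, in the UTOpiA group with library totals alone (1.07, adjusted p = 0.0121) and by limma on log2(TPM + 1) (1.04, adjusted p = 0.0188). Between the ACLF groups 0 of the 9 passed with edgeR, 0 at an unadjusted p under 0.05 with edgeR or DESeq2 and 1 with limma on log2(TPM + 1) (Bhlhe41). In the UTOpiA group against normal livers, Bhlhe41 lost its call without any 1 of the normal livers or without UTOpiA replicate 1 or 2 (adjusted p from 0.0601 to 0.0823), and Cry2 did so without any 1 of the normal livers or without UTOpiA replicate 2 or 3 (adjusted p from 0.0742 to 0.110). With library totals alone Cry2 did not pass in either group (−0.39, adjusted p = 0.192, and −0.28, adjusted p = 0.372).

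**Figure D4:**
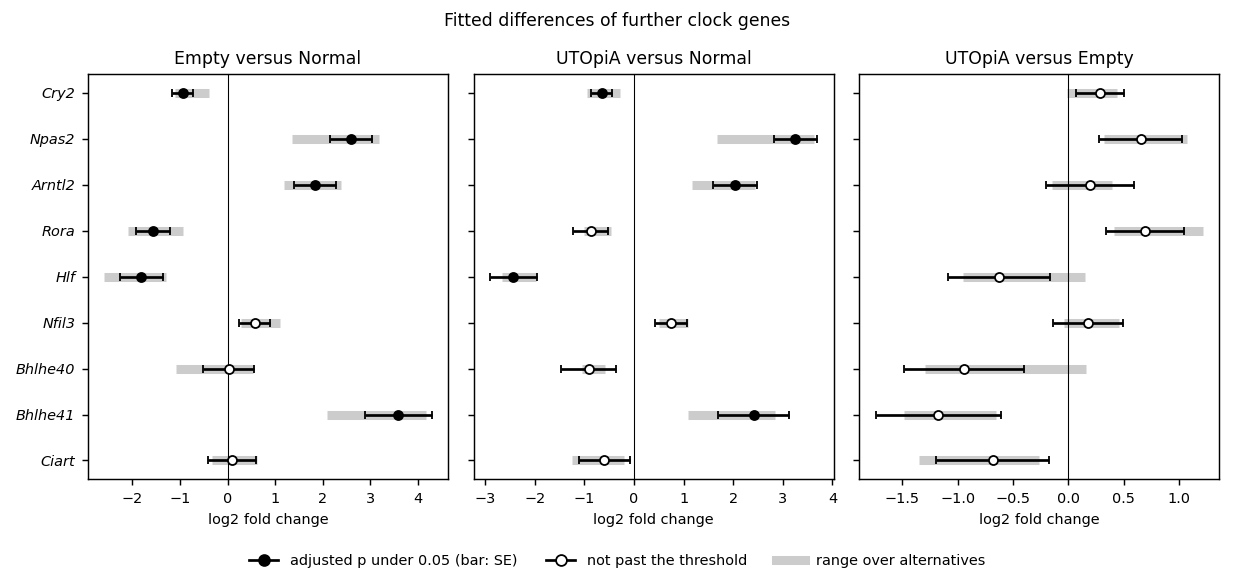
Log2 fold changes (x axis) of the 9 further clock genes tested in the 3 comparisons, with bars of 1 SE, filled points at an adjusted p under 0.05 and grey bands for the range over the alternatives. Npas2, Arntl2 and Bhlhe41 lie to the right of 0 and Cry2 and Hlf to the left in both comparisons with normal livers.

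Genes for enzymes that set the lifetime of the PER and CRY proteins were followed too. Csnk1e, a kinase of PER proteins, rose by 0.89 in the empty group (SE 0.15, adjusted p = 0.00151) and by 0.54 in the UTOpiA group (SE 0.15, adjusted p = 0.0199). Btrc, the ubiquitin ligase part for PER proteins, fell by 0.46 in the empty group (SE 0.16, adjusted p = 0.0337), although its values over the alternatives ran from −0.56 to 0.09. Csnk1d, Fbxl21, Fbxw11 and Gsk3b did not pass in either comparison with normal livers, although library totals alone gave adjusted p values of 0.0471, 0.0487 and 0.0491 for Csnk1d, Fbxw11 and Gsk3b in the empty group, and neither Csnk1e nor Btrc was a DEG. Btrc passed in the empty group under only 8 of the 20 alternatives. It was 0.09 with library totals alone (adjusted p = 0.740) and 0.05 by limma on log2(TPM + 1) (adjusted p = 0.869). Btrc also missed the test without normal replicate 1 or 3 or empty replicate 2 or 3 (adjusted p from 0.0752 to 0.122). In the UTOpiA group Csnk1e missed it without normal replicate 2 (adjusted p = 0.0789) or 3 (adjusted p = 0.0593).

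Rhythmic liver genes downstream of the clock were followed from a list of 10, of which Elovl3 did not pass the filter on low counts. In each ACLF group 3 of the 9 fell as DEGs against normal livers and none rose, and they were the same genes in both. Of all genes tested, 11.1% (empty) and 6.81% (UTOpiA) were DEGs lower than in normal livers. Usp2, a deubiquitinase, was at 28.4, 30.3 and 35.3 normalised CPM in normal livers, 5.81, 8.04 and 12.7 in empty livers and 7.98, 11.4 and 11.7 in UTOpiA livers. It fell by 1.82 (SE 0.28, adjusted p = 7.98e-04) and fell by 1.60 (SE 0.28, adjusted p = 0.00207), respectively, and passed under all 20 alternatives in both. Alas1, the rate-limiting enzyme of heme synthesis, fell by 1.42 (SE 0.34, adjusted p = 0.00789) and fell by 1.01 (SE 0.34, adjusted p = 0.0400). Gys2, the liver glycogen synthase, fell by 1.03 (SE 0.29, adjusted p = 0.0166) and fell by 1.06 (SE 0.29, adjusted p = 0.0183). With library totals alone Gys2 did not pass in either group (−0.50, adjusted p = 0.167, and −0.67, adjusted p = 0.0917), nor did Alas1 in the UTOpiA group (−0.69, adjusted p = 0.0750), and limma on log2(TPM + 1) did not call these 3 differences either. The other six, Wee1, Nampt, Noct, Por, Nr1i3 and Cyp7a1, did not pass in any comparison with edgeR over all 9 livers, and their log2 fold changes ran from −0.97 to 0.44 in the empty group and from −1.70 to 0.22 in the UTOpiA group. For 3 of the 6 this rested on empty replicate 2, the highest empty liver for each. Without it the differences in the empty group were −2.78 for Noct (adjusted p = 0.0123), −2.73 for Cyp7a1 (adjusted p = 0.00243) and −1.81 for Por (adjusted p = 0.0118), and Noct (adjusted p = 0.0415) and Por (adjusted p = 0.0496) also passed in the UTOpiA group. Nampt passed in the empty group with library totals alone (0.97, adjusted p = 0.0205) and by limma on log2(TPM + 1) (0.83, adjusted p = 0.0425), and Nr1i3 passed there without UTOpiA replicate 2 (−0.63, adjusted p = 0.0217) or with only the 6 libraries compared. Gys2 missed the test without empty replicate 3 in the empty group (adjusted p = 0.0531) and without normal replicate 1 or UTOpiA replicate 1 or 3 in the UTOpiA group (adjusted p from 0.0523 to 0.0549), and so did Alas1 in the UTOpiA group without normal replicate 1 or 2, empty replicate 1 or UTOpiA replicate 2 or 3 (adjusted p from 0.0501 to 0.142).

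Genes that respond to timing cues of the clock were measured as well. Of 5 genes induced by glucocorticoids, Tsc22d3 rose by 0.47 (SE 0.17, adjusted p = 0.0475), Fkbp5 by 0.92 (SE 0.29, adjusted p = 0.0267) and Zbtb16 by 2.26 (SE 0.56, adjusted p = 0.00968) in the empty group, while Sgk1 fell by 0.80 (SE 0.24, adjusted p = 0.0217) and Tat did not pass. In the UTOpiA group Zbtb16 rose by 1.74 (SE 0.56, adjusted p = 0.0352) and Sgk1 fell by 1.72 (SE 0.25, adjusted p = 9.1e-04), and the other three did not pass, although Fkbp5 did with library totals alone (1.03, adjusted p = 0.00771), by limma on log2(TPM + 1) (0.88, adjusted p = 0.0223), with upper-quartile factors (0.79, adjusted p = 0.0478) and without UTOpiA replicate 1 (0.96, adjusted p = 0.0130). Both cold-inducible RNA-binding protein genes, whose transcripts rise when body temperature is low, were higher in ACLF. Rbm3 was at 23.0, 23.8 and 31.1 normalised CPM in normal livers, 92.3, 175 and 296 in empty livers and 42.6, 53.9 and 86.2 in UTOpiA livers, and the 3 groups did not overlap. It rose by 2.86 in the empty group (SE 0.43, adjusted p = 9.39e-04) and by 1.23 in the UTOpiA group (SE 0.41, adjusted p = 0.0406), and the difference of −1.62 between the ACLF groups did not pass with edgeR (SE 0.41, adjusted p = 0.316) but did with DESeq2 (−1.64, adjusted p = 0.0127). Cirbp rose by 1.22 (SE 0.23, adjusted p = 0.00243) and 0.93 (SE 0.23, adjusted p = 0.0120). The fall of Sgk1 in the empty group was −0.25 with library totals alone (adjusted p = 0.504) and −0.23 by limma on log2(TPM + 1) (adjusted p = 0.534). Leaving out 1 liver ended several of these calls. In the empty group Tsc22d3 missed the test without any 1 of the normal livers, empty replicate 1 or 3 or UTOpiA replicate 3, Fkbp5 without any 1 of the normal livers or empty replicate 1 or 2, and Sgk1 without normal replicate 2 or 3 or empty replicate 1 or 3, at adjusted p values of 0.0561 and above. Against normal livers, the same held in the UTOpiA group for Zbtb16 without replicate 2 or 3 of the normal or of the UTOpiA group, for Cirbp without normal replicate 2 and for Rbm3 without any 1 of the normal livers, empty replicate 1 or UTOpiA replicate 2 or 3, at adjusted p from 0.0515 to 0.142. Body temperature and corticosterone are not given in the sources used here, and the part of either in the levels of the clock genes was not tested.

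Genes whose pattern over the 9 libraries was most like that of a clock gene were found for Arntl, Nr1d1 and Dbp, by the smallest root mean square difference of centred log2 CPM over 12996 genes. For Dbp they were Notum (0.27), which encodes a Wnt-inactivating enzyme, Ankh (0.33) and Gclm (0.36), a subunit of the glutathione-synthesising ligase, against a median of 0.88 over all genes, and the nearest clock gene was Per3 at rank 38. For Nr1d1 they were RGD1565222 (0.19), Oaf (0.21) and the complement gene C6 (0.26), against a median of 0.67, and the nearest clock gene, Nr1d2, stood at rank 3910. The likeness was weaker for Arntl, with Abcb9 (0.51), the fatty acid hydroxylase gene Cyp4a1 (0.57) and AY172581.9 (0.58) against a median of 1.04, and Clock, the nearest clock gene, stood at rank 583. Notum was at 16.8 to 29.0 TPM in normal livers and at 12.7, 40.4 and 6.15 TPM in empty replicates 1, 2 and 3. In UTOpiA replicates 1, 2 and 3 it was at 54.0, 15.7 and 13.1 TPM. In each ACLF group the liver highest in Dbp was the highest in Notum, a gene picked for its likeness to Dbp. These distances are a description over 9 libraries of 3 groups, which share their group differences.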

How the data were processed

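RNA-seq was performed on 9 rat livers (3 normal, 3 empty, 3 UTOpiA), grouped by their labels. The authors aligned reads with HISAT2 and deposited raw counts per gene from featureCounts and TPM, a length-scaled measure that adds up to 1000000 in each library. Per the labels, reads were trimmed with Trimmomatic, libraries were made with NEBNext kits and the build was rn6, whereas the paper's methods name Cutadapt, an MGIEasy kit and a mouse build.

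Differences were tested in R 4.3.3 with edgeR 4.0.16 (filterByExpr, TMM factors of 0.803 to 1.32, robust quasi-likelihood fit of all 9 libraries, two-sided). P-values were adjusted by Benjamini-Hochberg over 14089 genes. DEGs changed more than 2-fold at an adjusted p under 0.05. DESeq2 1.42.0, limma 3.58.1 on log2(TPM + 1), other scalings and filters, the replicate number as a block and each library left out were alternatives. In simulated counts of the 14089 genes for the empty group against normal livers, 75% of 200 genes altered 4-fold were found by edgeR, beside 13 false calls. All other genes were unchanged there, and each clock member changed less than 4-fold, so these figures do not describe the clock calls. Clock members were given as a list. The further lists and all members were chosen with earlier results of these data known. Some genes of the further lists are not reported here. All members, and the other listed genes that passed, were named, with the 3 genes most like Arntl, Nr1d1 and Dbp (mean of at least 1 CPM). The motif search covered RefSeq windows on GRCr8. No column was left unmatched. Replicates are labelled as biological.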

Additional observations from a re-analysis of the deposited data

How the results depend on the processing

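Each value was recomputed under 21 settings. Per2 (both comparisons with normal livers) and Cry1 (UTOpiA group) stayed DEGs under all that kept a fold threshold, and 0 clock genes were DEGs between the ACLF groups under any. Without the fold threshold, 6 clock genes counted in the empty group against normal livers instead of 3. DESeq2 gave the same 3 DEGs, while limma on TPM and library totals alone gave Per1 and Per2. Upper-quartile factors and at least 10 counts in every library gave Per1, Per2 and Per3, and no filter on counts gave Per2 and Cry1. With at least 10 counts in every library, 2 instead of 5 further clock genes were DEGs in the empty group and 1 instead of 4 in the UTOpiA group, since low genes were then not tested.

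The library totals alone moved the median of all genes by 0.55 (empty against normal), −0.18 (between the ACLF groups) and 0.37 (UTOpiA against normal), and upper-quartile factors by 0.11 in the first. In the first comparison 7 of 10 clock genes lay below 0 by TMM and 6 by library totals, where 7 lay below the median of all genes; in the third, 7 and 5 lay below 0, and 7 below that median by both.

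The replicate numbers did not pair the livers: deviations of same-numbered livers correlated at −0.02 to 0.03, −0.18 to −0.14 and −0.02 to 0.06 in the 3 comparisons. With the number as a block, 2 clock genes (Per2 and Cry1) were DEGs in the empty group. Per3 missed there (−1.21, adjusted p = 0.0505), as did Nr1d1 (0.80, adjusted p = 0.0728) and Bhlhe41 (2.44, adjusted p = 0.0526) in the UTOpiA group against normal livers. Of the further genes named, the block also ended the calls of Tsc22d3 (adjusted p = 0.0760) and Fkbp5 (0.0505) in the empty group and of Alas1 (0.0808), Zbtb16 (0.0720) and Rbm3 (0.0762) in the UTOpiA group.

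Direction reversed in 48 values, all of clock genes that did not pass the test, and the cause was not tested. For the empty group against normal livers, leaving out 1 liver gave −0.56 to 0.62 for Arntl, −0.10 to 0.28 for Nr1d1 and −0.45 to 0.17 for Nr1d2. Nr1d2 there was 0.0062 by DESeq2, 0.41 by limma on log2(TPM + 1) with or without a filter, 0.42 with a pseudocount of 0.1, 0.0052 by median-of-ratios factors, 0.0858 by upper-quartile factors, 0.53 by library totals, 0.0973 with at least 10 counts and 0.0079 with only the 6 libraries compared. Between the ACLF groups, leaving out 1 liver gave −0.27 to 0.79 for Arntl, −0.00072 to 0.27 for Clock, −0.10 to 0.56 for Per2, −0.17 to 0.79 for Per3, −0.34 to 0.34 for Nr1d2 and −0.0865 to 1.45 for Dbp. There Arntl was −0.0188 by library totals, and Clock was −0.0414 by library totals, −0.0481 by limma on log2(TPM + 1) with or without a filter and −0.0532 with a pseudocount of 0.1. For the UTOpiA group against normal livers, leaving out 1 liver gave −0.19 to 0.81 for Arntl, −0.34 to 0.0984 for Nr1d2 and −0.82 to 0.29 for Dbp. Nr1d2 was 0.15 by limma with either pseudocount or no filter and 0.23 by library totals. Dbp was 0.0886 by limma on log2(TPM + 1) with or without a filter, 0.0878 with a pseudocount of 0.1, 0.0363 by upper-quartile factors, 0.33 by library totals and 0.0427 with at least 10 counts.

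The clock genes had at least 36 counts in every library. With 3 livers a group, the spread between livers, widest for Arntl and Dbp, sets which differences can pass. Time of day, tissue make-up and survival to 24 h cannot be told apart from group.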
